A study of Sus scrofa with 24 samples.

Results

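PRPSAP2 was the host gene of 10 of the 3000 circRNAs in the table of back-splice reads from the spleen of Meishan pigs. These circRNAs were chosen by position: both back-splice ends lay within 1 base of exon ends of PRPSAP2, on the strand of the gene, in the RefSeq annotation of Sscrofa11.1. By the same rule 2842 circRNAs had 1 host gene. They came from 1670 host genes, of which 612 had at least 2 circRNAs, 63 had at least 5 and 6 had at least 10. The spleens came from 24 healthy pigs of this Chinese indigenous breed, 3 different pigs killed 1, 7, 14, 21, 28, 35, 120 or 180 days after birth (groups 1d to 180d), with 1 library per pig. All animals had the same diet and housing, none was treated or genetically altered, and 1d was the control stage. The counts are reads across a back-splice in bulk tissue, where fewer cells of a type and less RNA per cell cannot be told apart. Linear PRPSAP2 mRNA was not analysed here.

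Phosphoribosyl pyrophosphate (PRPP) is the activated sugar from which cells build purine, pyrimidine and NAD nucleotides. It is made by PRPP synthetase, a complex of the catalytic subunits PRPS1 and PRPS2 with the associated proteins PRPSAP1 and PRPSAP2, which resemble the catalytic subunits but lack their activity and are described as restraining them. A circRNA forms when the splice donor at the end of an exon is joined back to a splice acceptor at the start of the same or an upstream exon, and 1 gene can yield several such circles from different pairs of ends. The closed ring has no free ends and resists exonucleases, so circRNAs can outlast the linear transcripts of their gene.

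The PRPSAP2 gene spans chr12:60340879-60387856 on the minus strand of Sscrofa11.1, with 10 annotated transcripts. Exons are numbered here along a transcript of 14 exons in which coding sequence runs from exon 3 to exon 13, and exon 2 is a noncoding exon found in 5 of the 10 transcripts. Of the 10 circRNAs, 8 began at the acceptor of exon 2 and differed only in their donor. They were circRNA_08863 (exons 2 to 3, chr12:60376419-60376920), circRNA_08862 (exons 2 to 4, start 60375325), circRNA_08861 (exons 2 to 5, start 60373334), circRNA_08859 (exons 2 to 6, start 60370050), circRNA_08857 (exons 2 to 7, start 60366858), circRNA_08853 (exons 2 to 8, start 60361138), circRNA_08849 (exons 2 to 9, start 60353452) and circRNA_08842 (exons 2 to 11, start 60348042). The other 2 ended at the donor of exon 7, as circRNA_08857 did: circRNA_08856 held exons 3 to 7 (chr12:60366858-60376568) and circRNA_08855 held exons 5 to 7 (chr12:60366858-60373400). Among the 63 host genes with at least 5 circRNAs, PRPSAP2 had the most circRNAs at 1 shared acceptor, with 8, followed by PICALM, an adaptor of clathrin-coated pits, with 6.

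The junctions below set the shared acceptor beside its different partners. Each gives the last 15 bases of the donor exon in lower case and the first 15 bases of the acceptor exon in capitals, 5′ to 3′ on the minus strand of chromosome 12, from the RefSeq Sscrofa11.1 genome. The first 4 share their capitals (exon 2), and circRNA_08857, circRNA_08856 and circRNA_08855 share their lower-case part (exon 7). The 30 bases on each side of every junction occurred 1 time in the genome, and each pair of ends was flanked by AG before the acceptor and GT after the donor.
circRNA_08862 (exon 4 to exon 2): aggagcccgacagagGAGGAATTTTGTTGT
circRNA_08861 (exon 5 to exon 2): ccagactgtttcaaaGAGGAATTTTGTTGT
circRNA_08842 (exon 11 to exon 2): tctgccatcgacgagGAGGAATTTTGTTGT
circRNA_08857 (exon 7 to exon 2): tatattcaggaagagGAGGAATTTTGTTGT
circRNA_08856 (exon 7 to exon 3): tatattcaggaagagGGTCTGAGAATTGGG
circRNA_08855 (exon 7 to exon 5): tatattcaggaagagAAACAAGAGTGCAAA

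With every annotated exon between its ends retained, a circle would measure from 245 nt (circRNA_08863) to 1077 nt (circRNA_08842), with a GC content of 44.1% to 54.6%. The 3 circles read most would measure 654 nt (circRNA_08857), 298 nt (circRNA_08862) and 365 nt (circRNA_08861), and each would hold the 95 noncoding bases of exon 2 and the start of the coding sequence in exon 3. Back-splice reads do not show which inner exons a circle keeps, so these lengths were not measured. A back-splice is a single position, so its reads are not counted along the whole circle. Whether short and long circles were recovered equally in the libraries was not tested.

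Inverted repeats in the introns that flank a circle can pair and bring its ends together, and are known to favour circularization of many exons. In the transcript used for numbering, the intron before exon 2 was 5184 nt long. It was searched for inverted matches to each later intron of that transcript with blastn at an e-value of at most 1e-05. This transcript starts at 60382252, while the annotated gene reaches 60387856, and the sequence between them was not searched. Matches were found with the introns after exon 3 (1 match, best 115 nt at 73.9% identity), exon 6 (3, best 221 nt at 75.6%), exon 8 (6, best 254 nt at 81.1%), exon 9 (6, best 244 nt at 81.6%), exon 10 (3, best 237 nt at 85.7%) and exon 11 (3, best 237 nt at 83.5%). The introns after exons 3, 6, 8, 9 and 11 thus had matches, and a listed circRNA ended at each of these exons. None was found with the introns after exons 4, 5 and 7, the donors of the 3 most read circles. No listed circRNA ended at exons 2, 10, 12 or 13. The intron after exon 10 had 3 matches, and those after exons 2, 12 and 13 had none. The matches are a description of these sequences, and no relation to the reads was tested.

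**Figure D1:**
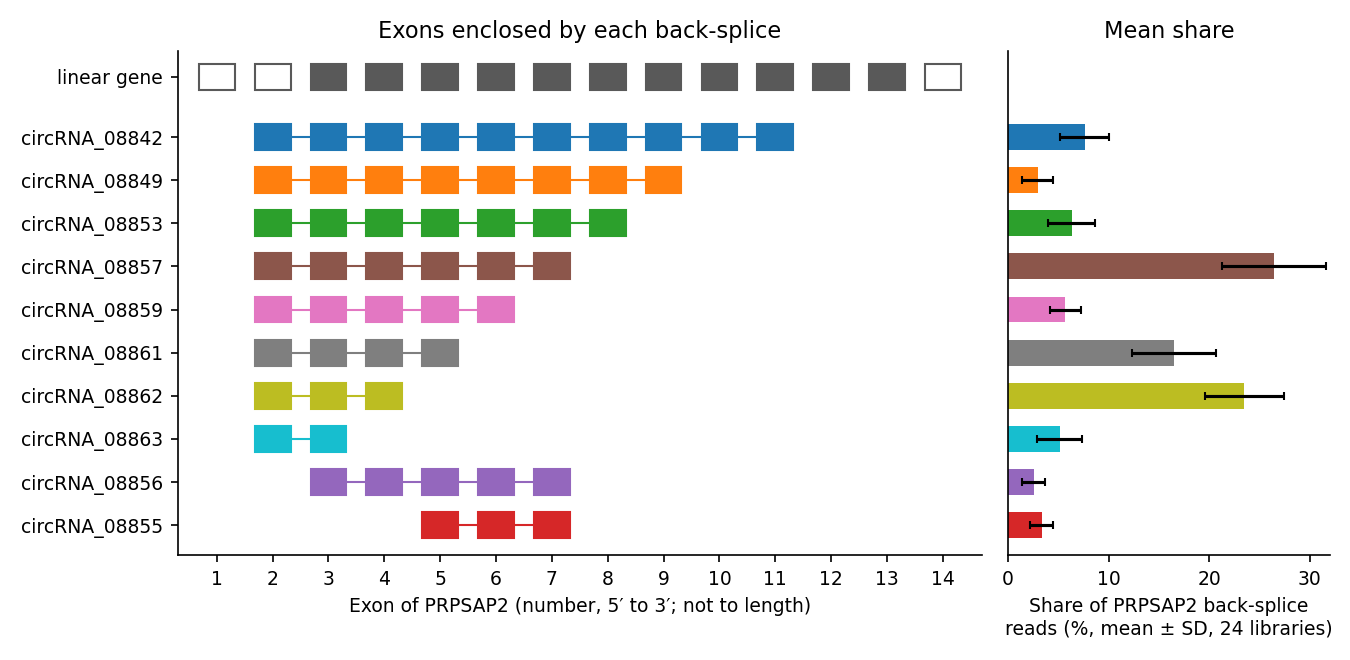
Left, the exons enclosed by each of the 10 circRNAs as filled boxes along the exon numbers of PRPSAP2, with the linear gene on top (white boxes, noncoding exons; dark boxes, exons with coding sequence; boxes are not drawn to length). Right, bars give the mean share of each circRNA in the PRPSAP2 back-splice reads of a library, with the SD over 24 libraries as lines: 3 circRNAs that start at exon 2 and end at exons 7, 4 and 5 hold 26.5%, 23.5% and 16.5%.

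The 10 circRNAs had 7922 reads together, 0.776% of all reads in the table, and by mean normalized count of the sum PRPSAP2 ranked 6 of the 1670 host genes. Most of these reads came from 3 of them. circRNA_08857 had 1958 reads over the 24 libraries, circRNA_08862 had 1944 and circRNA_08861 had 1408, and these ranked 55, 67 and 118 among the 3000 circRNAs by mean normalized count. The other 7 had between 204 reads (circRNA_08856) and 553 reads (circRNA_08842). Of the 10, 5 were listed at 0 in 1 library each: circRNA_08853 and circRNA_08855 in replicate 1 of 1d, circRNA_08849 in replicate 2 of 7d, and circRNA_08856 and circRNA_08863 in replicate 3 of 7d. The smallest count above 0 in the whole table was 2, so a listed 0 can stand for 0 or 1 read. Library totals over the 3000 circRNAs ran from 16273 reads in replicate 1 of 1d to 87867 in replicate 1 of 120d. The 1d and 7d libraries had the fewest back-splice reads in the table and give the least certain shares. Their sequencing depth was not lower: they had 102.96 M to 114.11 M clean reads, against 100.14 M to 115.29 M on day 120. The cause of their lower totals was not tested.

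As a share of the PRPSAP2 reads of a library, circRNA_08857 averaged 26.5% ± 5.17 (SD, n = 24 libraries), circRNA_08862 averaged 23.5% ± 3.91 and circRNA_08861 averaged 16.5% ± 4.22. The first and the second differed by less than these SDs, which span all stages and so include differences with age. Next came circRNA_08842 with 7.63% ± 2.45, circRNA_08853 with 6.33% ± 2.34, circRNA_08859 with 5.68% ± 1.55 and circRNA_08863 with 5.12% ± 2.26, which overlapped one another. circRNA_08855 (3.33% ± 1.15), circRNA_08849 (2.94% ± 1.55) and circRNA_08856 (2.55% ± 1.14) were lowest. The 8 circRNAs with the exon 2 acceptor together held a mean of 93.0% to 94.9% of the reads at every stage, so nearly all listed PRPSAP2 back-splices used the noncoding exon 2.

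The reads were spread over many isoforms. The effective number of isoforms, the exponential of the Shannon entropy of the shares, averaged 7.01 and its stage means stayed between 6.69 (14d) and 7.27 (21d). Among the 63 host genes with at least 5 circRNAs the median effective number was 4.11, and PRPSAP2 ranked 4. The most read circRNA held 26.5% of the reads of PRPSAP2, against a median of 40.7% over these hosts, and 9 hosts had a lower value. Among the other 5 host genes with at least 10 circRNAs, the share of the most read circRNA was 20.9% for ERBIN, 22.5% for CEP350, 37.8% for NCOR1, 40.0% for SMARCC1 and 40.7% for PICALM. A gene with more listed circRNAs can reach a higher effective number: divided by the number of circRNAs, that of PRPSAP2 ranked 39 of 63.

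**Figure D2:**
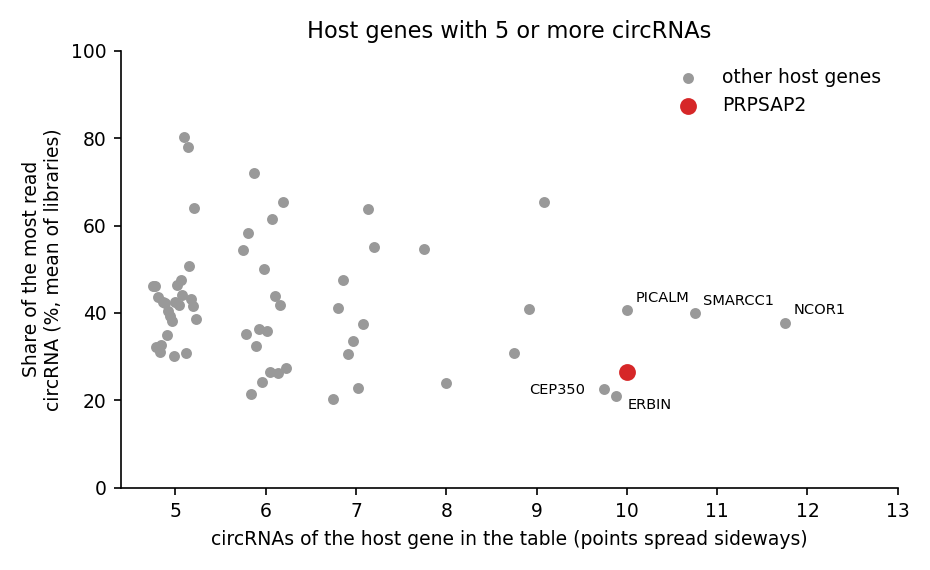
Each point is 1 of the 63 host genes with at least 5 circRNAs in the table, with the number of circRNAs on the horizontal axis and the mean share (%) of its most read circRNA on the vertical axis. PRPSAP2, in red, lies at 10 circRNAs and 26.5%, below PICALM (40.7%) and above CEP350 (22.5%) and ERBIN (20.9%).

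To follow the level of PRPSAP2 circRNAs with age, the counts of the 10 were summed. Normalized counts are counts over the effective library size (TMM), brought back to the geometric mean of these sizes. The sum was 156.3, 155.0 and 189.9 normalized counts in the 3 libraries of 1d, 239.4, 158.9 and 122.7 on day 7, 367.2, 258.2 and 244.1 on day 14, and 239.8, 318.9 and 339.8 on day 21. It was 333.6, 291.2 and 297.8 on day 28, 300.6, 297.9 and 361.8 on day 35, 329.6, 349.5 and 322.9 on day 120, and 371.0, 315.7 and 391.9 on day 180. From 14d onward every library lay above every library of 1d. The share of all host genes for which this held was not counted. The stage means were 167.1 ± 19.8 on day 1, 173.7 ± 59.7 on day 7, 289.8 ± 67.4 on day 14, 299.5 ± 52.8 on day 21, 307.6 ± 22.8 on day 28, 320.1 ± 36.2 on day 35, 334.0 ± 13.8 on day 120 and 359.5 ± 39.4 on day 180 (SD, n = 3 each). Of neighbouring stages in this order, 14d and 7d had libraries that did not overlap, and all other neighbours overlapped.

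**Figure D3:**
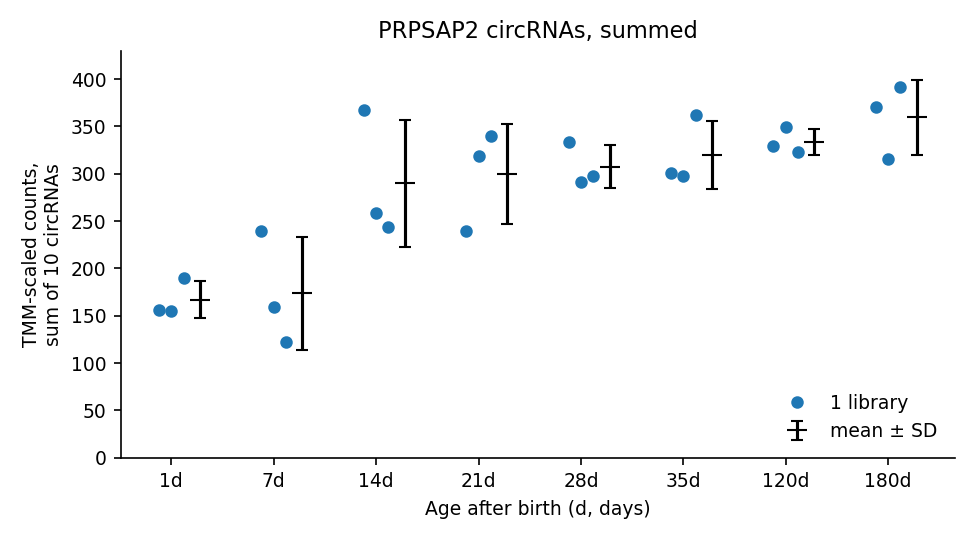
Sum of the TMM-scaled counts of the 10 PRPSAP2 circRNAs (vertical axis) by age in days (horizontal axis, evenly spaced stages). Points are the 3 libraries of a stage and lines beside them the mean ± SD: the 180d libraries lie between 315.7 and 391.9, and those of 1d between 155.0 and 189.9.

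The summed level rose with age by 0.158 ± 0.024 log2 per doubling of the age in days (slope ± SE over 24 libraries, edgeR adjusted p = 3.28e-06). Of all 1670 host genes 13.8% were called with a rise. The 7 stage coefficients together also passed (edgeR adjusted p = 5.34e-06, against 14.6% of hosts called). Against 1d, the log2 difference was 0.06 ± 0.19 on day 7 (SE; edgeR adjusted p = 0.955), 0.79 ± 0.18 on day 14 (0.0269), 0.84 ± 0.18 on day 21 (0.00735), 0.88 ± 0.18 on day 28 (0.00249), 0.94 ± 0.18 on day 35 (0.000988), 1.00 ± 0.18 on day 120 (0.000151) and 1.10 ± 0.18 on day 180 (1.63e-05). The level was thus called higher at 6 of the 7 later stages, 3 of which (28d, 120d and 180d) kept the call under every alternative. With library GC content as a covariate the call was lost on day 14 (0.722, edgeR adjusted p = 0.0745), day 21 (0.622, 0.289) and day 35 (0.765, 0.0552), and on day 14 it was also lost with DESeq2 size factors (0.721, 0.0589) or table totals (0.689, 0.0649). The share of hosts called higher than 1d was 0.0599% on day 7, 0.659% on day 14, 1.62% on day 21, 2.28% on day 28, 2.51% on day 35, 6.71% on day 120 and 8.44% on day 180. The 7 comparisons share the 1d libraries.

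The calls on days 14 and 21 rested on single libraries. On day 14 the call was lost without replicate 1 of 1d (log2 difference 0.75, edgeR adjusted p = 0.123), replicate 2 of 1d (0.74, 0.173) or replicate 1 of 14d (0.585, 0.213). On day 21 it was lost without replicate 1 of 1d (0.80, edgeR adjusted p = 0.054), replicate 2 of 1d (0.79, 0.092), replicate 2 of 21d (0.80, 0.0533) or replicate 3 of 21d (0.70, 0.0993). No single library ended the call on days 28, 35, 120 or 180 or that of the age slope.

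The size of the rise depended on the depth chosen. With the clean reads of a library as the depth, the log2 difference of the PRPSAP2 sum was 2.85 on day 120 and 2.26 on day 180, while the median of all 3000 circRNAs was 1.99 and 1.27. Under TMM scaling that median was 0.255 on day 120 and 0.197 on day 180, below the 1.00 and 1.10 of PRPSAP2. Of the reads of the table, PRPSAP2 circRNAs took 0.776% to 0.969% in the libraries of 180d, against 0.444% to 0.514% in those of 1d. The study's sequencing summary lists 7 libraries with a share of valid bases under 0.96, all from 21d or later and none from 1d. Among the libraries of at least 0.96 the age slope was 0.167 (edgeR adjusted p = 0.000572). The log2 difference from 1d was then 0.77 on day 14 (edgeR adjusted p = 0.0687), 0.70 on day 21 (0.187), 0.86 on day 28 (0.0109), 0.79 on day 35 (0.261), 0.96 on day 120 (0.0261) and 1.12 on day 180 (0.0119), so that the calls on days 14, 21 and 35 were lost. That fit has 1 library each for 35d, 120d and 180d, whose spread is taken from the remaining stages. The libraries under 0.96 hold no 1d sample to compare with.

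The 3 most read isoforms were followed library by library. circRNA_08861 (exons 2 to 5) had 23.9, 18.1 and 18.1 normalized counts in the libraries of 1d, 30.8, 27.4 and 12.8 on day 7, 66.2, 33.1 and 26.2 on day 14, and 34.5, 68.5 and 56.9 on day 21. It had 62.5, 37.8 and 29.2 on day 28, 54.1, 68.8 and 66.1 on day 35, 59.8, 71.9 and 60.5 on day 120, and 91.8, 71.2 and 77.2 on day 180. All 3 libraries of each stage from 14d on were above those of 1d. Of the 3000 circRNAs, 18.8% lay wholly above 1d on day 120 and 17.9% on day 180, and the earlier stages were not counted. The underlying reads were 86, 99 and 103 on day 180, against 12, 11 and 12 on day 1. The log2 difference was 1.68 ± 0.32 on day 120 (edgeR adjusted p = 0.00035) and 2.0 ± 0.32 on day 180 (1.5e-05), and the age slope was 0.27 ± 0.039 (4.58e-07), the steepest of the 10.

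circRNA_08862 (exons 2 to 4) followed a similar course. It had 31.9, 34.6 and 34.7 normalized counts on day 1, 46.9, 27.4 and 33.5 on day 7, 60.3, 75.5 and 43.6 on day 14, 42.8, 78.1 and 88.0 on day 21, and 92.3, 60.6 and 73.6 on day 28. On day 35 it had 67.1, 68.8 and 81.7, on day 120 97.9, 92.8 and 93.0, and on day 180 97.1, 87.0 and 107.2. Every library from 14d on lay above those of 1d, and the 120d and 180d libraries lay above those of 35d. The shares of all circRNAs above 1d are those given for circRNA_08861, and the share above 35d was not counted. The log2 difference was 1.48 ± 0.26 on day 120 (edgeR adjusted p = 8.5e-05) and 1.52 ± 0.26 on day 180 (2.66e-05), with an age slope of 0.23 ± 0.031 (2.93e-07).

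circRNA_08857 (exons 2 to 7), the most read of the 10, did not pass the test with age. It had 41.8, 41.2 and 64.8 normalized counts on day 1, 73.3, 41.9 and 35.1 on day 7, 114.7, 88.9 and 82.3 on day 14, 61.6, 73.8 and 94.6 on day 21, and 75.0, 74.6 and 82.5 on day 28. On day 35 it had 102.9, 70.9 and 92.1, on day 120 69.7, 80.6 and 79.0, and on day 180 57.6, 66.8 and 81.7. The highest stage mean was 95.3 ± 17.2 on day 14, and the 180d libraries overlapped those of 1d. Its log2 difference was 0.62 ± 0.24 on day 120 (edgeR adjusted p = 0.113) and 0.47 ± 0.25 on day 180 (0.243), and its age slope of 0.07 ± 0.034 did not pass (0.131). The 7 stage coefficients together passed (edgeR adjusted p = 0.0281), a call lost without any 1 of 6 libraries (replicates 1 and 2 of 1d, 2 and 3 of 7d, 1 of 14d and 1 of 35d, with adjusted p from 0.0516 to 0.086). It was also lost under 5 of 9 processing alternatives: DESeq2 size factors (edgeR adjusted p = 0.102), table totals (0.0903), libraries of at least 0.96 valid bases (0.0594), counts of 0 set to 1 (0.0502) and the DESeq2 test (0.103).

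Of the 10 circRNAs, 5 rose with age in edgeR and 0 fell. Of the 3000 circRNAs 16.5% were called with age in either direction and 10.7% rose. A filter on low counts kept 1802 of the 3000 and all of the 10, so part of the 3000 had few reads to test. The 10 also share 1 gene, so their calls are not independent. Beside circRNA_08861 and circRNA_08862 these were circRNA_08855 (slope 0.24 ± 0.064, edgeR adjusted p = 0.00683), circRNA_08863 (0.21 ± 0.061, 0.0115) and circRNA_08859 (0.18 ± 0.052, 0.00901). The call of circRNA_08863 was lost without replicate 3 of 180d (slope 0.18, edgeR adjusted p = 0.051). Among the libraries of at least 0.96 valid bases 3 circRNAs were called, and circRNA_08855 (edgeR adjusted p = 0.113) and circRNA_08863 (0.347) no longer were. The slopes of circRNA_08853 (0.13 ± 0.051, edgeR adjusted p = 0.0704), circRNA_08856 (0.10 ± 0.077, 0.432), circRNA_08842 (0.07 ± 0.053, 0.378) and circRNA_08849 (0.03 ± 0.073, 0.802) did not pass. That of circRNA_08853 passed without replicate 3 of 1d (0.17, edgeR adjusted p = 0.0315), as did its log2 difference on day 180 (1.86, 0.0327, against 1.19 and 0.0923 with all libraries). With the clean reads as depth 10 of the 10 passed, against 64.6% of the 3000 circRNAs called higher with age on that scale, where the median slope of all was 0.252, against 0.0293 under TMM scaling.

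circRNA_08855 (exons 5 to 7) encloses coding exons only. Its normalized counts were 9.89, 13.9 and 16.5 on day 120 and 17.1, 10.8 and 13.5 on day 180, against 0, 3.29 and 6.03 on day 1. The libraries did not overlap, but those of 1d held 0, 2 and 4 reads. Its log2 difference was 1.97 ± 0.63 on day 120 (edgeR adjusted p = 0.0426) and 1.99 ± 0.64 on day 180 (0.0346). The call on day 120 was lost without replicate 1 of 1d (1.49, edgeR adjusted p = 0.199), replicate 2 of 1d (1.95, 0.12), replicate 2 of 120d (1.94, 0.0812) or replicate 3 of 120d (1.79, 0.123). That on day 180 was lost without replicate 1 of 1d (1.51, edgeR adjusted p = 0.168), replicate 2 of 1d (1.99, 0.0898), replicate 1 of 180d (1.83, 0.0917) or replicate 3 of 180d (2.0, 0.0643). Of 9 processing alternatives, 6 ended the call on day 120 (DESeq2 size factors, table totals, at least 0.96 valid bases, GC content as a covariate, counts of 0 set to 1 and the DESeq2 test, with log2 differences of 1.54 to 1.97 and adjusted p from 0.0771 to 0.534). The same ones except DESeq2 size factors ended that on day 180 (1.65 to 2.28, adjusted p from 0.0522 to 0.21).

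Between stages a call needed an edgeR adjusted p under 0.05 together with a fold change of 2 or more. On day 7 edgeR called 0 of the 10 (0 at an unadjusted p under 0.05) and 0 of the 3000 (284 at an unadjusted p under 0.05). On day 14 it called 0 of the 10 (3 at an unadjusted p under 0.05), against 0.0667% of all, and the DESeq2 test also called 0 of the 10 on both days. On day 21 circRNA_08861 (log2 difference 1.43, edgeR adjusted p = 0.0184) and circRNA_08862 (1.05, 0.025) were higher than on day 1, against 0.9% of the 3000 circRNAs. On day 28 it was circRNA_08862 alone (1.16, edgeR adjusted p = 0.00784), against 1.27%, and on day 35 circRNA_08861 (1.67, 0.00253) and circRNA_08862 (1.10, 0.00908), against 1.9%. On day 120 and on day 180 3 of the 10 were higher (circRNA_08861, circRNA_08862 and circRNA_08855), against 4.63% on day 120 and 5.9% on day 180. The count was 2 under the alternatives that ended the call of circRNA_08855. The 7 stage coefficients together passed for 4 of the 10 (circRNA_08861, 7.66e-06; circRNA_08862, 5.93e-06; circRNA_08857; circRNA_08863, edgeR adjusted p = 0.0283), against 8.97% of all. The call of circRNA_08863 was lost without any 1 of 5 libraries (replicates 1 and 3 of 7d, 3 of 14d, 2 of 120d and 3 of 180d, with edgeR adjusted p from 0.0517 to 0.104), and under 4 of 9 processing alternatives: DESeq2 size factors (edgeR adjusted p = 0.0518), table totals (0.086), at least 0.96 valid bases (0.407) and GC content as a covariate (0.0541). None of the 10 was called lower at any stage. Falls were the smaller part of calls among the 3000 too: on day 180, 9.3% were called in either direction and 5.9% higher. With 10 circRNAs, the lack of a called fall is thus no trait of PRPSAP2.

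Counts of calls at the middle stages were set by few libraries. On day 21 the count was 0 without any 1 of the 1d libraries or without replicate 2 or 3 of 21d. On day 28 it was 0 without replicate 1 of 1d or replicate 1 of 28d and 2 without replicate 3 of 28d, and on day 35 it was 1 without replicate 1 of 1d or replicate 3 of 35d. On day 14 it was 1 without replicate 3 of 1d. The stage differences were called for 2 of the 10 without replicate 3 of 7d.

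Regardless of the test, every 120d library was above every 1d library for 7 of the 10 circRNAs (all but circRNA_08842, circRNA_08849 and circRNA_08853), against 18.8% of the 3000. On day 180 this held for 5 of the 10 (circRNA_08853, circRNA_08855, circRNA_08859, circRNA_08861 and circRNA_08862), against 17.9%. circRNA_08859 (exons 2 to 6) had 22.1 ± 7.60 normalized counts on day 120 and 21.5 ± 1.74 on day 180, against 9.19 ± 2.68 on day 1 (SD, n = 3 each), with log2 differences of 1.28 ± 0.45 (edgeR adjusted p = 0.069) and 1.23 ± 0.46 (0.0787). circRNA_08863 (exons 2 to 3) had 21.7 ± 3.32 on day 120 and 21.4 ± 11.3 on day 180, against 10.1 ± 4.09 on day 1. The long circRNA_08849 (exons 2 to 9) had 8.43 ± 0.448 on day 120 and 7.13 ± 1.00 on day 180, against 8.02 ± 1.74 on day 1, a log2 difference of −0.16 ± 0.65 on day 180, and circRNA_08842 (exons 2 to 11) had 23.2 ± 9.63 on day 180, against 13.01 ± 1.30 on day 1 (0.81 ± 0.43, edgeR adjusted p = 0.257). For circRNA_08849 a change of 1 log2 in either direction lies within 2 SE of this value.

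**Figure D4:**
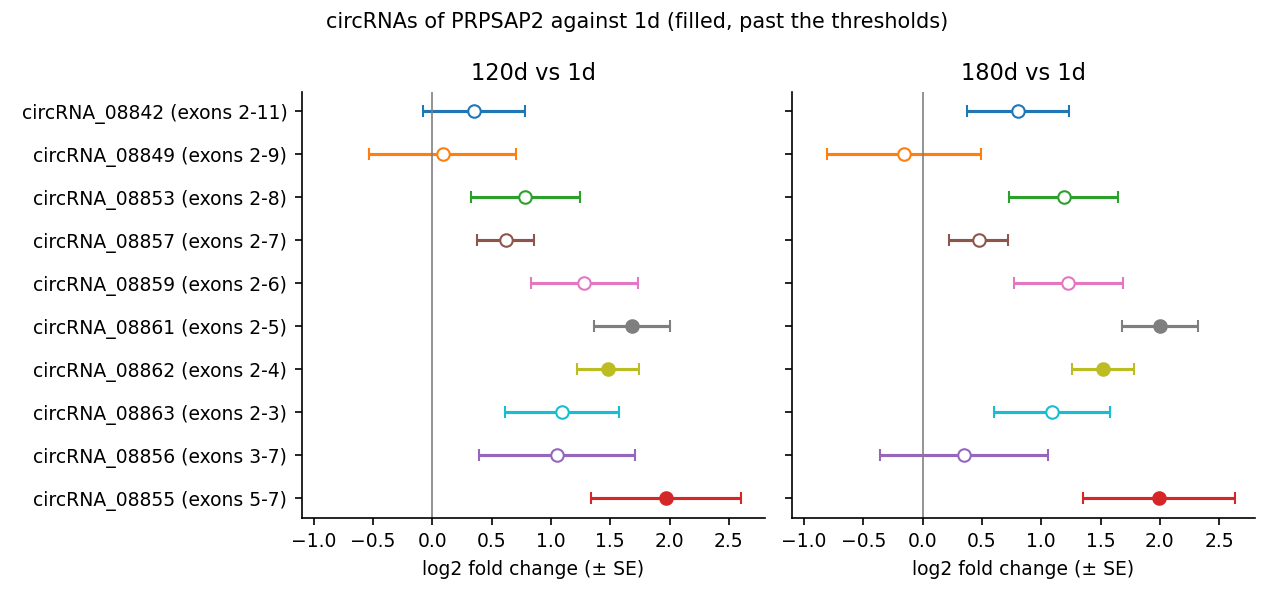
Points are log2 fold changes of the 10 circRNAs on days 120 (left) and 180 (right) against 1d on TMM-scaled counts, with the SE of the edgeR fit as lines; filled points passed an adjusted p of 0.05 and a fold change of 2. On day 180 the filled points are circRNA_08861 (2.0), circRNA_08855 (1.99) and circRNA_08862 (1.52), while circRNA_08857, the most read, stands at 0.47 and circRNA_08849 at −0.16.

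The shares within the gene show which isoforms made up the sum at each stage. The share of circRNA_08857 was 30% ± 4.54 on day 1, 29.5% ± 1.84 on day 7, 33.2% ± 1.92 on day 14, 25.4% ± 2.12 on day 21, 25.4% ± 2.87 on day 28, 27.6% ± 5.85 on day 35, 22.0% ± 1.60 on day 120 and 18.9% ± 2.92 on day 180 (SD, n = 3 each). That of circRNA_08861 was 12.6% ± 3.15, 13.9% ± 3.55, 13.9% ± 3.64, 17.4% ± 3.48, 13.9% ± 4.43, 19.6% ± 2.70, 18.4% ± 1.33 and 22.0% ± 2.71 over the same stages. That of circRNA_08862 was 20.9% ± 1.90, 22.1% ± 5.83, 21.2% ± 7.07, 22.5% ± 3.69, 24.5% ± 3.41, 22.5% ± 0.233, 27.3% ± 1.41 and 26.6% ± 0.421. The stage mean of circRNA_08857 was thus lowest on days 120 and 180, that of circRNA_08862 was highest at these stages, and that of circRNA_08861 was highest on day 180. Counting error is wide on day 1: for circRNA_08857 replicate 1 of 180d gave 15.5% of 348 PRPSAP2 reads (95% Wilson interval 12.1% to 19.7%), against 28.0% of 75 reads in replicate 1 of 1d (19.1% to 39.0%). Intervals cover counting error only.

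In these libraries the most read isoform was not the same in older and younger pigs. circRNA_08857 had the most reads in 9 of 9 libraries from 1d to 14d, in 7 of 9 from 21d to 35d and in 0 of 6 on days 120 and 180, and circRNA_08862 led in the other 8 libraries. Some leads were within counting error. circRNA_08857 had 22 reads against 21 of circRNA_08862 in replicate 3 of 7d, 100 against 97 in replicate 2 of 35d, and 85 against 90 in replicate 2 of 21d. The ratio of circRNA_08862 to circRNA_08857 reads was 0.535 to 0.84 on day 1, 0.64 to 0.955 on day 7, 0.526 to 0.849 on day 14, 0.695 to 1.06 on day 21, 0.812 to 1.23 on day 28, 0.653 to 0.97 on day 35, 1.15 to 1.41 on day 120 and 1.30 to 1.69 on day 180. Every library of 120d and 180d was above every other library except replicate 1 of 28d (1.23). The highest ratios on day 120 and on day 180 came from replicate 1, the library of each stage with at least 0.96 valid bases. On day 35 replicate 1 was likewise the library of at least 0.96, and it had the lowest ratio of that stage (0.653, against 0.97 and 0.887). A relation of the ratio to valid bases was not tested. This pair was chosen after its values were seen, so the ratio is a description with no test. Over all libraries circRNA_08857 and circRNA_08862 had nearly equal reads (1958 and 1944), so a small shift can change which of them leads. How often the most read circRNA changed in other host genes was not counted. The test of isoform use given next did not pass in the main fit.

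**Figure D5:**
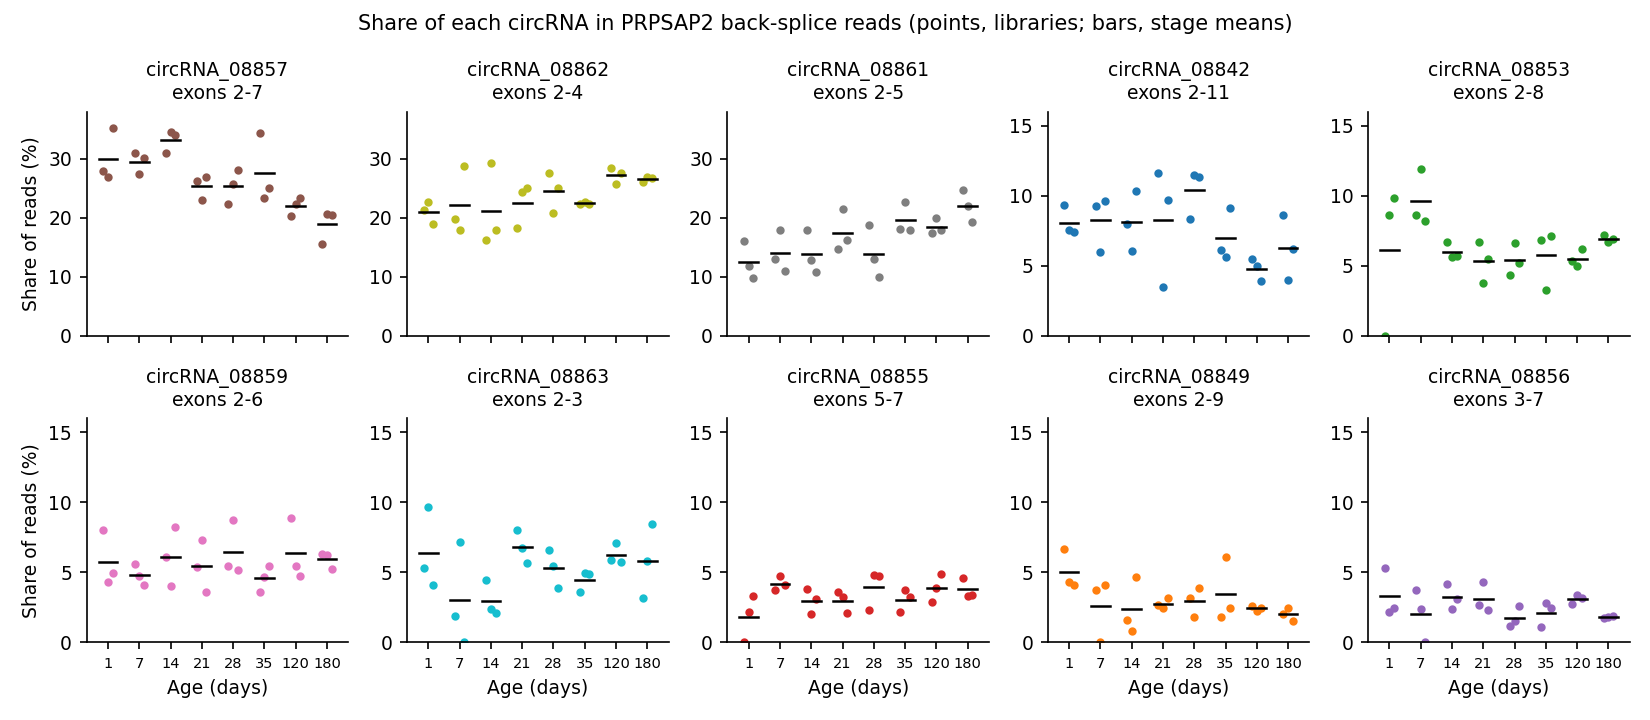
Each panel shows the share (%) of 1 circRNA in the PRPSAP2 back-splice reads of a library by age in days, with points for libraries and bars for stage means; the first 3 panels run to 38% and the others to 16%. The mean share of circRNA_08857 is 18.9% on day 180, against 33.2% on day 14, while that of circRNA_08861 is 22.0% on day 180, against 13.9% on day 14.

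Whether the isoforms changed by different amounts was tested with diffSpliceDGE of edgeR, which asks if any circRNA of a host gene departs from the trend of that gene, over the 612 hosts with at least 2 circRNAs. For the age slope PRPSAP2 had an unadjusted p of 0.00447 and an adjusted p of 0.0943, and so did not pass, against 2.94% of hosts that did. On day 120 against 1d the diffSpliceDGE adjusted p was 0.569 (0 of 612 hosts called, 68 at an unadjusted p under 0.05), and on day 180 it was 0.257 (2.29% of hosts called). Relative to the gene, the slope was −0.098 ± 0.039 for circRNA_08857 (diffSpliceDGE adjusted p = 0.424) and 0.10 ± 0.042 for circRNA_08861 (0.462). It was 0.056 ± 0.038 for circRNA_08862 and −0.098 ± 0.053 for circRNA_08842. None of the 10 passed (2 had an unadjusted p under 0.05), against 0.28% of 1784 circRNAs tested, and 0 passed on day 120, against 0 of 1784, or on day 180, against 0.168%.

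This call turned on the processing. limma's diffSplice gave PRPSAP2 an adjusted p of 0.0146 for the age slope and called circRNA_08857 (relative slope −0.13, adjusted p = 0.0308), diffSpliceDGE gave 0.0493 after a filter on low counts and 0.0193 with counts of 0 set to 1, and leaving out 1 library gave 0.0534 to 0.217. Among the libraries of at least 0.96 valid bases the adjusted p was 0.931, and with clean reads as depth it was 0.642.

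The table held few other genes of nucleotide synthesis. Of a list of 61 genes of the PRPP synthetase complex, purine, pyrimidine and NAD synthesis, salvage, the pentose phosphate pathway and the folate cycle, 6 had a circRNA in the table, with 1 circRNA each. PRPS2, the catalytic partner, had 7.96 ± 0.349 normalized counts on day 120 and 7.74 ± 1.62 on day 180, against 3.64 ± 3.25 on day 1, and its age slope of 0.14 ± 0.094 did not pass (edgeR adjusted p = 0.279). HPRT1, which salvages hypoxanthine and guanine with PRPP as substrate, had 13.9 ± 4.51 on day 120 and 23.3 ± 4.96 on day 180, against 7.11 ± 2.12 on day 1. Of the 6 it was the 1 called with age (slope 0.19 ± 0.055, edgeR adjusted p = 0.0092), against 13.8% of all hosts called with a rise, and it was higher on day 180 (log2 difference 1.71, 0.0138), against 8.44% of hosts. The slopes of GMPS, which makes GMP from XMP, UCK2, a uridine and cytidine kinase, SAMHD1, a deoxynucleotide triphosphate hydrolase, and RRM1, a subunit of ribonucleotide reductase, were −0.026, −0.047, 0.066 and −0.058, and none passed. The median slope of the 6 was 0.020, against 0.022 over all 1670 hosts.

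The spleen label could hardly be checked in this table. Of 9 B cell markers only BANK1 had a circRNA, with 12.1 to 20.2 normalized counts on day 120 and 10.7 to 30.2 on day 180, against 0 to 3.11 on day 1, and it rose with age. Of 11 T and NK cell markers only LEF1 did (3.71 to 8.58 on day 120 and 6.33 to 9.54 on day 180, against 0 to 14.6 on day 1; not called). Of 7 erythroid markers only TFRC, the transferrin receptor, did, with 5.42 to 10.1 on day 120 and 0 to 12.5 on day 180, against 32.7 to 62.5 on day 1, and it fell with age. None of 5 macrophage and 7 stromal or endothelial markers had a circRNA. BANK1 and TFRC thus moved with age and LEF1 was not called. CD96, a gene of T and NK cells outside these lists, had 1 circRNA, which rose with age (slope 0.508, edgeR adjusted p = 8.98e-09), against 13.8% of all hosts. It is named only because its profile was the most like that of the PRPSAP2 sum, which rose. Its rise therefore follows from that choice and says nothing about T and NK cells as a group. The part of these cell types in the rise of the PRPSAP2 sum was not tested.

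Over the 24 libraries, the host genes whose summed log2 CPM was most like that of PRPSAP2, of 864 other hosts with a mean of at least 10 normalized counts, were CD96, a receptor of T and NK cells (Pearson r = 0.893), SNX6, a sorting nexin (0.862), SLC38A9, a lysosomal amino acid transporter (0.860), PHC3, a polycomb protein (0.851), and CNOT11, a subunit of the CCR4-NOT deadenylase (0.850). With stage means subtracted, r was 0.658, 0.345, 0.294, 0.445 and 0.492 in the same order. The median r over the 864 hosts was 0.191, and 0.0595 with stage means subtracted. These values share libraries, depth and age, and describe likeness only.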

How the data were processed

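The authors mapped trimmed reads to Sscrofa11.1 (BWA; the labels list FastQC, cutadapt and TopHat2) and identified circRNAs with CIRI2. The deposited table gives raw counts of back-splice reads per circRNA and library, with no normalization, for 3000 circRNAs; the rule that chose them is not given in the sources used here. Labels and methods of the study differ on extraction (RNeasy or TRIZOL) and library kit (TruSeq or NEBNext), and RNase R digestion is named in the methods only; which was used could not be settled. Of the counts 8.72% were 0. Library totals ran from 16273 to 87867 and hold part of each library only.

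Counts were tested in R 4.3.3 with edgeR 4.0.16 (TMM, estimateDisp, robust glmQLFit, glmQLFTest, two-sided) in 1 fit over 24 libraries with no covariate and no filter, per circRNA and summed per host gene. P-values were adjusted by Benjamini-Hochberg over all features of a fit and called under 0.05, and for single circRNAs between stages also at a fold change of 2 or more. Isoform use was tested with diffSpliceDGE. Log2 CPM for likeness had a prior count of 2. Replicates are different pigs. Tests were tried on simulated counts first. Host genes, exons and introns came from RefSeq on the build of the table with Python 3.11.15, pandas 2.3.3 and blastn 2.17.0; figures with matplotlib 3.10.9.

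Named were all circRNAs of PRPSAP2, the 5 hosts most like it, the listed pathway genes in the table and, for evenness, hosts with at least 10 circRNAs. The members, lists and tests were chosen with earlier results of these data known. Alternatives were DESeq2 size factors, table totals or clean reads as depth, DESeq2 1.42.0, diffSplice of limma 3.58.1, filterByExpr, a replicate block, GC content as a covariate, libraries of at least 0.96 valid bases, counts of 0 set to 1, and leaving out each library.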

Additional observations from a re-analysis of the deposited data

How the results depend on the processing

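The summed age slope, the summed stage differences and the summed comparisons of 28d, 120d and 180d with 1d kept direction and call under every alternative. Leaving out 1 library gave 0.147 to 0.167 for the slope, and adjusted p-values of 7.11e-07 to 0.000145 for the stage differences. The summed differences from 1d were then −0.253 (without replicate 1 of 7d) to 0.258 on day 7, 0.585 to 0.899 on day 14, 0.701 to 0.976 on day 21, 0.814 to 0.982 on day 28, 0.837 to 1.04 on day 35, 0.942 to 1.10 on day 120 and 1.03 to 1.21 on day 180. The circRNAs called numbered 4 to 6 with age, 2 to 4 for stage differences, 0 to 1 on day 14, 0 to 2 on day 21 and on day 28, 1 to 3 on day 35, 2 to 3 on day 120 and 2 to 4 on day 180, and isoform use with age had an adjusted p of 0.0534 to 0.217. The share of circRNA_08857 ran from 26.1% to 27.0%.

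With DESeq2 size factors the 14d sum was 0.721 (edgeR adjusted p = 0.0589), and 2 circRNAs were called for stage differences and 1 on day 21 and on day 35. With table totals the 14d sum was 0.689 (0.0649), with 2 called for stage differences, 0 on days 21 and 28 and 1 on day 35. With clean reads as depth the calls were 10 with age, 10 for stage differences, 3 on day 14, 8 on day 21, 6 on day 28, 9 on day 35, 10 on day 120 and 8 on day 180, while of all 3000 circRNAs 64.6% were called higher with age, 50.5% for stage differences, 2.83% on day 14, 20.9% on day 21, 14.3% on day 28, 30.7% on day 35, 65.6% on day 120 and 32.8% on day 180. At least 0.96 valid bases left sums of 0.769 on day 14, 0.701 on day 21 and 0.791 on day 35, none of them past the threshold, and 3 calls with age, 2 for stage differences and 0 on days 21 and 35. With GC content as a covariate the sums were −0.0897 on day 7, 0.722 on day 14, 0.622 on day 21 and 0.765 on day 35, none past the threshold, with 0 calls on days 21 and 35. Counts of 0 set to 1 gave 1 call on day 21 and on day 35 and isoform use with age at 0.0193, filterByExpr 0.0493, and limma's diffSplice 0.0146 with 1 circRNA called. The DESeq2 test called 0 on day 21 and 1 on day 35. The calls on days 120 and 180 were 2 without that of circRNA_08855, which 6 alternatives ended on day 120 and 5 on day 180. The cause of these changes was not tested.

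circRNA_08849 changed sign on day 120 with DESeq2 size factors (−0.0642), table totals (−0.186), counts of 0 set to 1 (−0.114), the DESeq2 test (−0.0652) and without replicate 2 of 1d (−0.0365, range without 1 library up to 0.251), on day 180 with clean reads (0.932) and without replicate 1 of 1d (0.00747, range from −0.26), and with age under table totals (−0.0042). The relative slope changed sign for circRNA_08863 (−0.0303, at least 0.96 valid bases), circRNA_08853 (0.0125, limma) and circRNA_08859 (−0.0101 without replicate 1 of 120d, up to 0.0336 without others). Deviations of same-numbered libraries of different stages had a mean r of 0.00624 (−0.0806 to 0.104 over pairs), so the numbers were not taken as pairs. Of 24 libraries 13 correlated best with one of their own number, where 8 would by chance, since 7 of 21 libraries of other stages share it. With the replicate block the age slope of the sum was 0.158 (edgeR adjusted p = 5.27e-06), and the block changed no call. Most of the 10 circRNAs rest on few reads on days 1 and 7, which limits every comparison with 1d.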
